A study of Mus musculus with 4 samples.

Results

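Ly6c2-positive, MHC class II-high cells were examined among colonic macrophages and monocytes of mice fed chow or a high-fat diet (HFD). They were chosen from the readout itself. For each cell, M was the sum of the H2-Aa, H2-Ab1, H2-Eb1 and Cd74 UMIs per 10000 UMIs, and a cell was taken when it held at least 1 Ly6c2 UMI and M was at least 200. A UMI is a molecular tag, so 1 UMI stands for 1 captured mRNA. The rule took 891 of 5420 cells: 24 of 904 cells of Chow mouse 9, 86 of 2002 of Chow mouse 11, 194 of 966 of HFD mouse 1 and 587 of 1548 of HFD mouse 3.

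In the colon, macrophages are replaced throughout life from blood. Ly6C-high monocytes enter through CCR2, gain MHC class II while they still carry Ly6C, and then lose Ly6C and CCR2 as they become resident macrophages rich in complement C1q, CX3CR1, CD81 and IL-10. Ly6c2 encodes the Ly6C antigen, Ccr2 the receptor for the chemokine CCL2, and Cd74 the invariant chain that guides the class II α and β chains (H2-Aa, H2-Ab1, H2-Eb1) to the endosome. MHC class II rises in macrophages under interferon-γ, which acts through GAS elements, while type I interferons act mainly through ISRE elements.

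The mice were male C57/Bl6N animals aged 6-7 weeks that had eaten chow or a coconut-based HFD for 1 week, 2 separate mice per diet. Live CD45+ cells of the colonic lamina propria that lacked lineage markers and CD24, carried CD11b, and were positive for Ly6C or CD64 had been sorted and loaded in 1 well of a 10x Genomics 3′ kit per mouse. The 4 libraries held 3832283, 7947893, 3824228 and 5584175 UMIs (Chow 9, Chow 11, HFD 1, HFD 3) over 11820 genes, and the cells of the rule held 124753, 400368, 921139 and 2354770 of them. Median depth was close in all mice, at 3926, 3747, 3804 and 3266 UMIs per cell, and 23 barcodes (46 cells, 10 of them among the 891) occurred in more than 1 library. Chow mouse 9 stood apart in its cells of the rule, of which a doublet caller marked 3 of 24 (12.5%) and 20.8% held more than 2 times the median UMIs of their mouse, against 0%, 2.58% and 0.852% marked and 9.30%, 10.8% and 11.2% above that depth in Chow mouse 11, HFD mouse 1 and HFD mouse 3. Since each diet had 2 mice, an exact permutation test over mice could not go below p = 0.33 (two-sided), and tests across genes were made on counts summed per mouse.

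The name transitional monocyte was checked against a measure the rule did not use, C, the C1qa, C1qb and C1qc UMIs per 10000. On HFD the name fitted most of the cells, whereas on chow it did not. C was at least 50 in 83.3% and 74.4% of the cells of the rule in Chow mice 9 and 11, but in 42.8% and 35.1% in HFD mice 1 and 3, and its median was 185, 178, 33.7 and 11.8. The cells are therefore called by their rule, and those with C under 50 (518 cells) are called C1q-low and those with C of 50 or more (373 cells) C1q-high. C1q-low cells numbered 4, 22, 111 and 381 in the 4 mice.

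Ly6c2 itself stood at 816, 293, 339 and 521 CPM (counts scaled to a sum of 1000000) in the C1q-high cells and at 770, 1133, 789 and 1232 CPM in the C1q-low cells, so it was lower at high C1q in 3 of the 4 mice. Exactly 1 Ly6c2 UMI had put 420 of the 891 cells in the set, namely 20 of 24, 60 of 86, 107 of 194 and 233 of 587. In Chow mouse 9, the exception, 1 C1q-high cell held 68 of the 101 Ly6c2 UMIs, and the summed Ly6c2 level of 810 CPM was 297 without that cell. Over all cells of the rule Ly6c2 was at 810, 430, 587 and 932 CPM, below the 1535, 2060, 1591 and 2154 CPM of Ly6c2-positive cells with M under 200 (the MHC II-low monocytes, 770 cells). Ly6c1, a near-identical neighbour of Ly6c2 with which the pseudo-alignment may share its reads, was listed at 8.02 CPM or less. Ccr2 was present at 393, 472, 646 and 619 CPM, and the diets did not separate beyond the spread of the test (log2 HFD over chow 0.29 ± 0.18 SE, edgeR quasi-likelihood adjusted p = 0.388). The C1q levels pointed in opposite directions, with 1422, 1377, 740 and 722 CPM in C1q-low cells (log2 −0.80, adjusted p = 0.0899) and 232, 295, 530 and 478 CPM in C1q-high cells (log2 0.72, adjusted p = 0.0918), so that the diets did not overlap at either level but neither change passed the test.

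Among cells with C of 150 or more, a class of resident macrophages that should lack the gene, 2.77% and 3.58% held a Ly6c2 UMI on chow and 14.3% and 31.6% on HFD, at a median of 4568, 4712, 4710 and 4977 UMIs in the positive cells. The positive C1q-low MHC II-high cells had medians of 4146, 2883, 4352 and 3348 UMIs. The cells of the rule made up 2.65% and 4.30% of all cells on chow, and 16 of those 24 and 51 of those 86 cells had C of 150 or more themselves, so most of them came from a class in which Ly6c2 was that rare. Among C1q-low cells with M of at least 200, 8.70%, 32.4%, 46.3% and 64.0% held a Ly6c2 UMI, and among C1q-low cells with M under 200 it was 58.4%, 63.1%, 87.2% and 83.6%. With each cell thinned to 1000 UMIs these shares were 0.524%, 0.766%, 4.27% and 11.1% (C of 150 or more), 4.88%, 23.2%, 24.2% and 40.3% (C1q-low, M at least 200) and 45.5%, 35.1%, 63.3% and 67.7% (C1q-low, M under 200). A Ly6c2 UMI was thus commoner on HFD at C of 150 or more too. There, Ly6c2 UMIs per Plac8 UMI were 0.167, 0.172, 0.0711 and 0.157 against 0.179, 0.227, 0.112 and 0.163 in C1q-low cells with M under 200, whereas Ly6c2 UMIs per Chil3 UMI were 0.432, 0.323, 0.230 and 0.451 against 0.175, 0.206, 0.147 and 0.190, higher in all 4 mice. Free RNA as a source of single Ly6c2 UMIs was not tested.

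**Figure D1:**
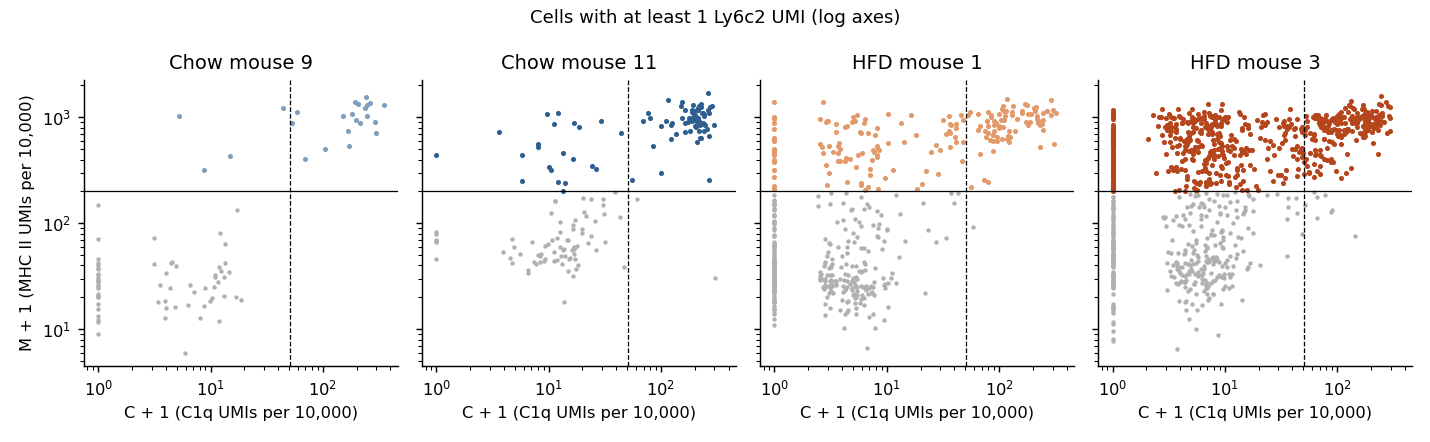
MHC class II sum M against C1q sum C, both per 10000 UMIs with 1 added and on log axes, for each cell with a Ly6c2 UMI, 1 panel per mouse, with lines at M = 200 and C = 50. On chow most cells above M = 200 lie right of C = 50 (83.3% and 74.4%), while in HFD mice 42.8% and 35.1% do.

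The cells of the rule were commoner on HFD. They made up 2.65% (95% Wilson interval 1.79 to 3.92) and 4.30% of the cells on chow and 20.1% and 37.9% on HFD, so that the diets did not overlap. The means were 3.48% ± 1.16 and 29.0% ± 12.6 (SD, n = 2 mice each), a difference of 25.5 percentage points (exact permutation p = 0.33, the smallest possible). C1q-low cells alone gave 0.442%, 1.10%, 11.5% and 24.6%, and C1q-high cells alone gave 2.21%, 3.20%, 8.59% and 13.3%. Both subsets were above chow in both HFD mice. Cells with at least 2 Ly6c2 UMIs made up 0.442%, 1.30%, 9.01% and 22.9%, and thinning to 1000 UMIs gave 0.673%, 1.34%, 9.25% and 21.4% after 12, 58, 47 and 51 shallower cells were left out.

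As a share of the Ly6c2-positive cells alone, the MHC II-high state did not separate the diets. It took in 26.7% and 52.1% on chow and 40.4% and 63.4% on HFD (exact permutation p = 0.67), with Chow mouse 11 above HFD mouse 1. The larger share among all cells thus went with more Ly6c2-positive cells of both MHC II levels. The sort, the dissociation and the authors' removal of cells not annotated as macrophages or monocytes set the denominator, and their part in the shares was not tested. The cut at M = 200 had Ly6c2-positive cells close to it on both sides. M was from 150 to 200 in 54 of these cells and from 200 to 250 in 56, and the median inside the rule was 731. The nearest values were 200 inside it and 198 outside.

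**Figure D2:**
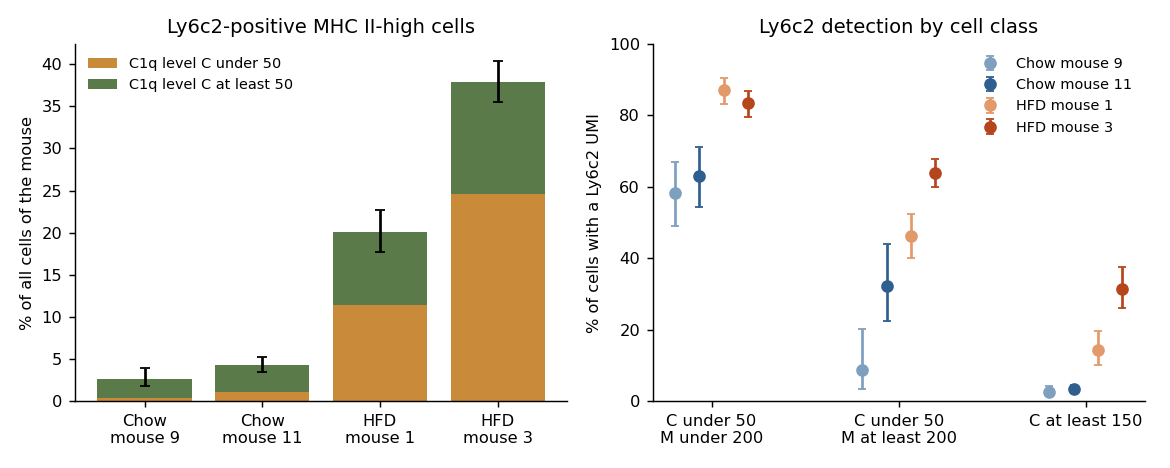
Left, percent of each mouse's cells that were Ly6c2-positive and MHC II-high, stacked by C1q level, with the 95% Wilson interval of the total (counting error only). Right, percent of cells with a Ly6c2 UMI in 3 classes per mouse, with its 95% Wilson interval. The HFD mice reach 20.1% and 37.9%, the chow mice 2.65% and 4.30%, and cells with C of 150 or more on chow are 2.77% and 3.58% positive.

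Within the HFD mice, where most of the cells were, the monocyte and the resident macrophage genes named here were ordered along C1q in opposite directions. Monocyte genes were higher at C under 50 than above it. Plac8, a monocyte gene, went from 8797 CPM at C under 10 through 5948 and 2991 to 830 CPM at C of 150 or more in HFD mouse 1, and from 8360 through 7926 and 4018 to 982 CPM in HFD mouse 3. Chil3, a chitinase-like protein of Ly6C-high monocytes, stood at 1480 and 1686 CPM in the lower bands and at 667 and 297 CPM in the upper bands of HFD mouse 1, and in HFD mouse 3 it was at 2312, 2397, 932 and 325 CPM. S100a6, a calcium-binding protein, fell from 1961 to 471 CPM and from 1692 to 459 CPM between the lowest and the highest band. Hp, which encodes haptoglobin, went from 486 to 61.9 CPM and from 340 to 77.7 CPM.

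Genes of resident macrophages ran the other way, and most of their change lay in the last band. Apoe, the lipid carrier apolipoprotein E, was at 5658, 7512, 7861 and 30739 CPM in HFD mouse 1 and at 4033, 4369, 8051 and 21409 CPM in HFD mouse 3. Cd81, a tetraspanin, was at 96.2, 170, 290 and 1834 CPM and at 71.9, 115, 310 and 1100 CPM. Pf4, the chemokine platelet factor 4, rose from 23.4 to 613 CPM and from 25.3 to 330 CPM. Cells with C of 50 to 150 therefore combined C1q with Plac8 and Chil3 at levels between those of the lower bands and the highest band, while Apoe and Cd81 were still low in them. Of these cells 15.4% and 11.6% held more than 2 times the median UMIs of their mouse (HFD mice 1 and 3). At C under 10 it was 6.02% and 6.38%, and at C of 150 or more 16.1% and 31.2%. The part of doublets in this combination was not tested.

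The MHC II genes themselves, which the rule used, rose only modestly along C. H2-Aa was at 15617 and 16609 CPM in the lowest band and at 24829 and 24715 CPM in the highest. Interferon-induced genes had no common order. Gbp2, a guanylate-binding protein, declined from 1311 to 434 CPM and from 1380 to 445 CPM. Cxcl9, the chemokine that draws CXCR3-positive T cells, was highest at C of 50 to 150, with 783, 1062, 1653 and 142 CPM in HFD mouse 1, but in HFD mouse 3 it was nearly level at 893, 910, 981 and 763 CPM. These bands are slices of the same cells of 2 mice, and their order is a description without a test.

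**Figure D3:**
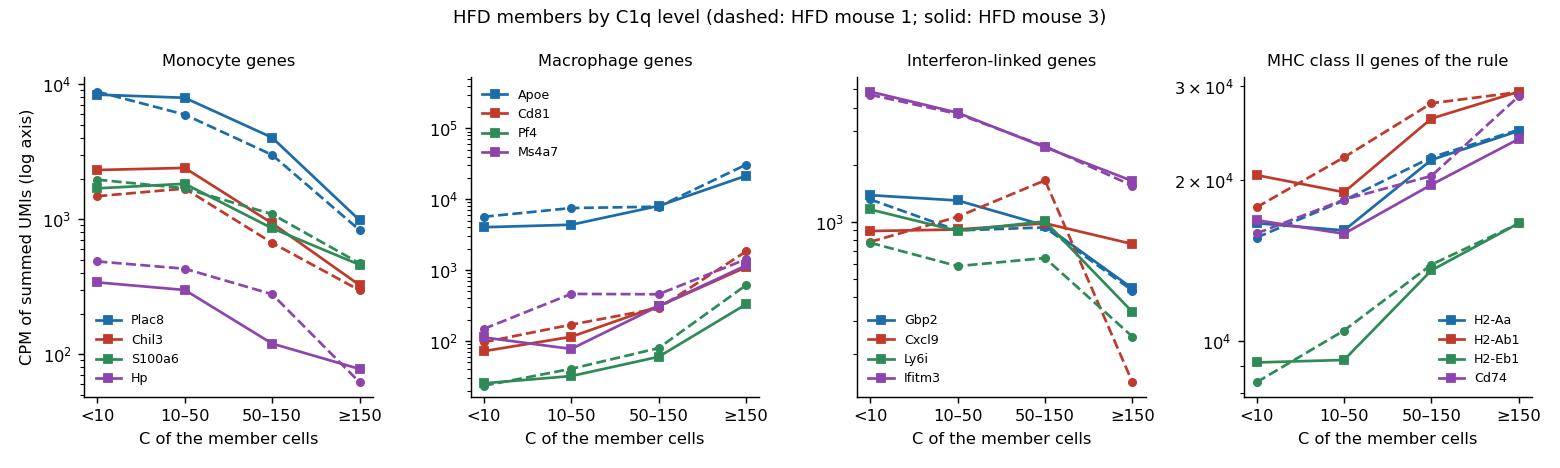
Summed expression (CPM, log axis) of monocyte, macrophage, interferon-induced and MHC II genes in HFD cells of the rule (members) by band of C1q, 1 line per HFD mouse. Plac8 declines from 8797 and 8360 CPM to 830 and 982 CPM, while Cd81 climbs from 96.2 and 71.9 CPM to 1834 and 1100 CPM.

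The cells of the rule were set against neighbouring classes that were cut on Ly6c2, M and C. Where the cells lay between these classes was therefore partly fixed by the cuts. These contrasts share the rule's own cells and are given without a test. Of 5137 genes, 118 (2.30%) were more than 1 log2 unit higher than in the MHC II-low monocytes in all 4 mice and 69 (1.34%) more than 1 lower. Against Ly6c2-negative C1q-low cells with M of at least 200 (431 cells) these counts were 20 (0.389%) and 3 (0.0584%), and against Ly6c2-negative C1q-high cells (3129 cells) 16 (0.311%) and 1 (0.0195%). C1qa, C1qb and C1qc are among the 20, and the class of 431 cells was limited to C under 50 while the cells of the rule were not. The counts moved with the mice and the Ly6c2 threshold. Without HFD mouse 3 they were 43 and 16 against the Ly6c2-negative C1q-low cells, and without HFD mouse 1 26 and 11. Against the C1q-high cells they were 26 and 10 without Chow mouse 11, 26 and 2 without HFD mouse 1, 24 and 2 without Chow mouse 9, and 19 and 3 without HFD mouse 3. With at least 2 Ly6c2 UMIs they were 56 and 36 against the MHC II-low monocytes, 7 and 3 against the Ly6c2-negative C1q-low cells and 33 and 20 against the C1q-high cells. In all of these settings the count of higher genes was largest against the MHC II-low monocytes.

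The genes that set them apart from MHC II-low monocytes included Dnase1l3, a secreted nuclease, at 2317, 2310, 1405 and 2179 CPM against 52.6, 87.6, 100 and 200 CPM. H2-M2, a non-classical class I gene, was at 1218, 602, 98.8 and 64.5 CPM against 14.3, 30.5, 4.43 and 4.9 CPM. Cd72, an inhibitory lectin known from B cells, was at 240, 120, 58.6 and 32.3 CPM against 0, 7.61, 0 and 1.96 CPM. Lower than in those monocytes was Chil3, at 192, 405, 1078 and 1635 CPM against 5997, 7854, 10264 and 9813 CPM.

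The 3 genes lower than in the Ly6c2-negative C1q-low cells were Cd209a, Klrd1 and Ccnd1. Cd209a, a C-type lectin of monocyte-derived and conventional type 2 dendritic cells, was at 104, 17.5, 104 and 96.4 CPM against 395, 315, 473 and 505 CPM. In the HFD cells of the rule Cd209a was concentrated at the lowest C1q level, with 205 and 171 CPM at C under 10 and 24.8 and 47.1 CPM at C of 150 or more. Dendritic cell markers summed to 681, 450, 677 and 701 CPM in the 4 mice, with 9 of the 18 genes at 0 in Chow mouse 9 (Zbtb46, Clec9a, Ccr7 and Ccl22 among them), 4 in Chow mouse 11, 1 in HFD mouse 1 and 0 in HFD mouse 3. The number of genes at 0 went down as the UMIs of the sums went up (124753, 400368, 921139 and 2354770), so it does not compare the diets.

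The comparison of diets was made on the counts of the cells of the rule summed per mouse. At FDR 1% (edgeR quasi-likelihood test, Benjamini-Hochberg adjustment), 267 of 5137 genes (5.20%) changed, 113 (2.20%) higher and 154 (3.0%) lower on HFD. The counts of the gene lists below are to be read against these shares. In 266 of the 267 the mice of one diet lay apart from those of the other on the scale of the fit (TMM, which scales each sum by a factor of its own). Of all genes tested, 1456 had both HFD mice above and 1241 both below on that scale. The CPM printed here do not carry these factors (0.919 and 0.932 on chow, 1.07 and 1.10 on HFD), and without them 2023 genes had both HFD mice above and 811 both below. Because the chow sums came mostly from C1q-high cells, the same test was run within each C1q level. The C1q-high level itself still differed in makeup, with a median C of 201.2 and 202.1 on chow against 116.9 and 122.2 on HFD, and with C of 150 or more in 16 of 20, 51 of 64, 31 of 83 and 77 of 206 cells. C1q-high cells alone gave 179 of 5501 genes (3.25%), 88 higher (1.60%) and 91 lower (1.65%). C1q-low cells alone, with chow sums of 4 and 22 cells, gave 36 of 4874 (0.739%), 25 higher (0.513%) and 11 lower (0.226%). Without HFD mouse 1, HFD mouse 3, Chow mouse 9 and Chow mouse 11 the counts in all cells were 141, 112, 122 and 55, without the marked doublets 256, and without the cells above 2 times the median UMIs 159. The median log2 change of the 113 genes was 1.56 in all cells, 1.72 in C1q-high and 1.16 in C1q-low cells, and that of the 154 genes was −1.75, −1.47 and −0.59. Over all genes tested the median was 0.005, 0.012 and 0.30. Of the 113 only 111 were tested in C1q-high cells, and of the 154 only 124 in C1q-low cells, so that those medians cover fewer genes. The fits also differed in their prior degrees of freedom, by which edgeR shares variance across genes. These were 16.51 in all cells, 16.15 in C1q-high cells, 4.96 and 5.01 without Chow mouse 9 and Chow mouse 11, and infinite in C1q-low cells and without either HFD mouse. Their part in the counts of calls was not tested.

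Interferon-induced genes were among the rises seen at both C1q levels. Of 21 tested genes of the list of other interferon-γ-induced genes, 12 rose and 2 fell (median log2 change 1.81, against 0.01 over all genes). The 12 include Upp1, which had no count on chow and passed the filter on low values through the HFD mice. In C1q-high cells 10 rose, and in C1q-low cells 6 rose, with none lower at either level, and with 1 mouse left out 10 (without HFD mouse 1), 8 (HFD mouse 3), 8 (Chow mouse 9) and 3 (Chow mouse 11) rose. Ly6i, a member of the Ly6 family, stood at 24.0 and 32.5 CPM on chow against 621 and 931 CPM on HFD (log2 4.45 ± 0.32 SE, adjusted p = 2.02e-08). Cxcl9 was at 8.02 and 64.9 CPM on chow against 946 and 894 CPM on HFD (log2 3.99 ± 0.32, adjusted p = 7.26e-08). It was found in 1 of 24 and 8 of 86 cells on chow and in 101 of 194 (52.1%) and 314 of 587 (53.5%) cells on HFD. In HFD mice 1 and 3 it was also found in 39.7% and 52.8% of Ly6c2-negative C1q-high cells and in 37.1% and 42.8% of MHC II-low monocytes, and the part of free RNA in these shares was not tested. By C1q level its log2 change was 4.8 in C1q-high cells (adjusted p = 7.88e-08) and 2.59 in C1q-low cells (adjusted p = 6.58e-08). The Ly6 genes are alike in sequence, and the pseudo-alignment may have shared their reads.

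AA467197 (Nmes1, a small mitochondrial protein of activated macrophages) was at 24.0 and 7.49 CPM on chow against 601 and 356 CPM on HFD (log2 5.12 ± 0.46, adjusted p = 4.01e-07). Ass1, argininosuccinate synthase, which remakes arginine from citrulline, was at 32.1 and 37.5 CPM on chow against 388 and 392 CPM on HFD (log2 3.20 ± 0.30). Serpina3g, a protease inhibitor, Calhm6, Slamf8, Ly6a, Upp1, Acod1 (which makes itaconate), Il18bp (which binds interleukin 18) and AW112010 were the other risers. Upp1, uridine phosphorylase, was at 38.0 and 37.8 CPM on HFD, at least 6.63-fold higher against a floor of 3 counts over both chow mice. Socs3 and Icam1 were the 2 that fell, Socs3 from 689 and 972 CPM to 574 and 576 CPM. Fewer falls were called with any mouse left out, 0, 0, 1 and 0 without HFD mouse 1, HFD mouse 3, Chow mouse 9 and Chow mouse 11, and 0 without the cells with over 100 Igha and Jchain UMIs.

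Of 8 guanylate-binding proteins and related GTPases tested, which attack vacuoles that hold pathogens, 3 rose and 0 fell, and with any 1 mouse left out 1 rose. Gbp2 was at 24.0 and 120 CPM on chow against 999 and 1095 CPM on HFD (log2 3.3 ± 0.29, adjusted p = 3.69e-07), with calls in C1q-high and in C1q-low cells as well. Gbp5 was at 0 and 2.50 CPM against 39.1 and 41.6 CPM (fitted log2 4.11 ± 0.92, adjusted p = 0.00642), and Iigp1 at 0 and 20 CPM against 70.6 and 85.8 CPM. With so few counts on chow, Gbp5 passed the filter on low values through the HFD mice, and its log2 change is no measured fold. The Gbp genes are also close copies of each other, so the split between them is uncertain.

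Of 42 type I interferon-induced genes, 8 rose and 0 fell (median 0.68), while of all genes 2.20% rose and 3.0% fell. C1q-high cells gave 6 and C1q-low cells 2. Without HFD mouse 1, HFD mouse 3 or Chow mouse 9 the edgeR test called 6, 5 or 3, and without Chow mouse 11 it called 0, with 14 at an unadjusted p under 0.05. Isg15, a ubiquitin-like modifier, was at 48.1 and 62.4 CPM on chow against 259 and 317 CPM on HFD (log2 2.08 ± 0.29, adjusted p = 5.71e-05). Irf7, the master regulator of type I interferon genes, was at 96.2 and 102 CPM against 266 and 424 CPM (log2 1.56 ± 0.28, adjusted p = 0.000867). Ifitm1 (log2 3.52), Ifi205 (2.92) and Zbp1 (2.83) rose with them. Ifit1 rose as well, from 0 and 2.50 CPM to 73.8 and 64.5 CPM (fitted log2 4.86). With so few counts on chow, Ifit1 passed the filter on low values through the HFD mice, and its log2 change is no measured fold. Among genes of the signal path that did not pass the test, Stat2 had a log2 change of 3.11 (adjusted p = 0.0226) and Irf1 one of 0.57 (adjusted p = 0.285). Ccl8, a chemokine, was at 8.02, 89.9, 43.4 and 256 CPM, so that the diets overlapped.

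**Figure D4:**
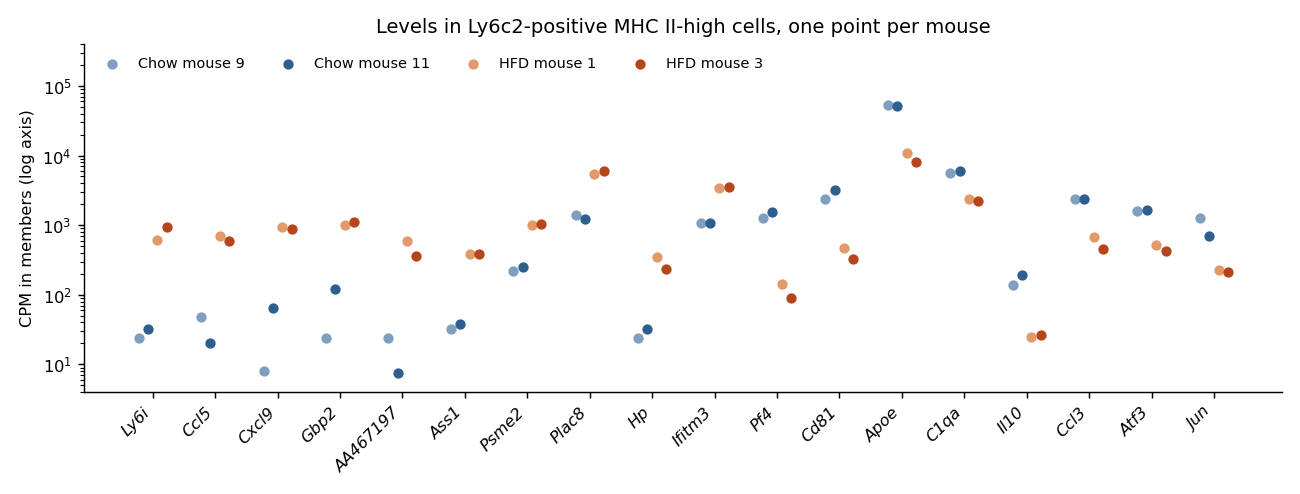
Expression (CPM, log axis) of 18 genes in the summed cells of the rule (members), 1 point per mouse, chow and HFD in different colours. Cxcl9 sits at 8.02 and 64.9 CPM on chow against 946 and 894 CPM on HFD, while Pf4 goes from 1250 and 1554 CPM to 144 and 89.6 CPM.

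The stretch of 250 bases before the start site is shown for 5 of the risers, 3 known as interferon-γ-induced (Cxcl9, Gbp2, Gbp5) and 2 as type I interferon-induced (Ifit1, Isg15), so that the interferon motifs can be seen in place. They were chosen because each holds a motif; the risers Irf7, Ifitm1, AA467197, Upp1, F10 and Procr held neither motif in the same stretch. The sequences are RefSeq's, build GRCm38.p6, printed 5′ to 3′ on the strand of the gene. Capitals mark the GAS motif TTCNNNGAA and the ISRE core GAAANNGAA or its reverse complement TTCNNTTTC, and overlapping matches run together. They lie at chr5:92328080-92328329 (Cxcl9, minus strand), chr3:142620413-142620662 (Gbp2, plus), chr3:142496684-142496933 (Gbp5, plus), chr19:34640639-34640888 (Ifit1, plus) and chr4:156200819-156201068 (Isg15, minus).
Cxcl9: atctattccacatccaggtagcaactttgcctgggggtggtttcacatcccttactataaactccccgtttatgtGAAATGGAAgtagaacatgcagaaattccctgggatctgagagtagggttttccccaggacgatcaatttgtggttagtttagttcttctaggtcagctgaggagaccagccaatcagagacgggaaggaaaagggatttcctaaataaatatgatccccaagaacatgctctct
Gbp2: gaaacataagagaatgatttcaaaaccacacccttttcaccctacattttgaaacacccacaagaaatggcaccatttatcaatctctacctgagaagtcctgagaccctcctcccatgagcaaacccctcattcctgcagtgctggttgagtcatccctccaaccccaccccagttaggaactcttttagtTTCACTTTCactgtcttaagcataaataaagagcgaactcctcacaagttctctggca
Gbp5: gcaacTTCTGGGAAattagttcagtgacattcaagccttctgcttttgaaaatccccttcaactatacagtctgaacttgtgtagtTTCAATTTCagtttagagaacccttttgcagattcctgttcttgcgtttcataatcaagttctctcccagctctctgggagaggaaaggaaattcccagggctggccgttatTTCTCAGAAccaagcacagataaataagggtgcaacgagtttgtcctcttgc
Ifit1: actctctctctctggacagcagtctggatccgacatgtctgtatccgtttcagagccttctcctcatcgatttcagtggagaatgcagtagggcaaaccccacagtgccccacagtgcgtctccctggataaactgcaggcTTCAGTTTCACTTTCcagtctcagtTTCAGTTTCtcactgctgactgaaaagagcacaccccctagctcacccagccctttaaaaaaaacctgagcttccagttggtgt
Isg15: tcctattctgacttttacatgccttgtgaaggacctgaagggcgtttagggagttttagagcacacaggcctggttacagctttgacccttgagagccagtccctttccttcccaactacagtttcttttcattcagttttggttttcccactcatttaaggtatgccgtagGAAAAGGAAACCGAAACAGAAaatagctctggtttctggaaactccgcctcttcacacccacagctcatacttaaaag

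Gbp5 held 2 GAS motifs and 1 ISRE core, Cxcl9 and Gbp2 held 1 ISRE core each, and Ifit1 and Isg15 held 3 ISRE cores each. Of 32851 promoters in the table, 7.02% had a GAS motif and 7.13% an ISRE core on either strand. Of the 113 genes that rose, 87 had a promoter there (103 promoters), of which 8.74% had a GAS motif and 15.5% an ISRE core. Of the 154 genes that fell, 115 had one (163 promoters), with 6.13% and 9.82%. A match describes these letters only.

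Part of the machinery that cuts and loads peptides for MHC class I was higher on HFD, where 2.20% of all genes rose and 3.0% fell. Of 20 tested genes of MHC class I and the immunoproteasome, 7 rose and 0 fell (median 0.87), with 7 and 2 rises in C1q-high and C1q-low cells, and 3, 2, 4 and 1 rose without HFD mouse 1, HFD mouse 3, Chow mouse 9 and Chow mouse 11. Psme2, a subunit of the proteasome activator PA28, was at 216 and 247 CPM on chow against 1000 and 1037 CPM on HFD (log2 1.88 ± 0.19, adjusted p = 1.42e-06), and it was called at both C1q levels. Psme1 (1.20), Tap1 (1.86) and Tap2, Psmb8 (1.58), Psmb9 (1.22) and Psmb10 (1.78) made up the rest, the transporter and the catalytic subunits of the immunoproteasome. Beyond the genes of the rule, the MHC class II pathway did not move as a group, with 1 rise and 2 falls among 13 genes (median −0.12). Ifi30, the lysosomal thiol reductase, rose from 385 and 709 CPM to 1720 and 1746 CPM, while Cd83, which keeps class II at the surface, fell from 2685 and 2438 CPM to 895 and 1007 CPM, and Lgmn, the protease legumain, fell as well. H2-DMa, which loads peptide on class II, was at 1916, 2325, 2402 and 2414 CPM (log2 −0.06 ± 0.16, adjusted p = 0.886).

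Some monocyte genes were higher on HFD, but in C1q-low cells 1 was called higher and 1 lower. Of 24 tested, 11 rose, 0 fell and 13 did not pass the test in all cells (median 0.90), where 2.20% of all genes rose. The 11 include Gsr (0 and 2.50 CPM on chow), which passed the filter on low values through the HFD mice. In C1q-high cells 8 rose of 23, and the median in C1q-low cells was 0.03, against 0.30 over all genes there. Without HFD mouse 1, HFD mouse 3, Chow mouse 9 or Chow mouse 11, 7, 8, 5 or 4 rose. Plac8 was at 1419 and 1219 CPM on chow against 5432 and 5914 CPM on HFD (log2 1.88 ± 0.17, adjusted p = 4.01e-07). Its log2 change was 3.15 in C1q-high cells (adjusted p = 8.61e-07) and 0.32 in C1q-low cells (adjusted p = 0.65). Ifitm3, an antiviral membrane protein, behaved alike, at 1082 and 1082 CPM against 3401 and 3522 CPM, with a log2 change of 1.96 in C1q-high and 0.18 in C1q-low cells (adjusted p = 0.862). Hp differed from them, since it rose at both levels, with log2 changes of 2.46 (adjusted p = 0.00496) and 2.54 (adjusted p = 0.000625).

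Resident macrophage genes were lower on HFD, 19 of 25 tested and none higher (median −1.88), with 17, 12, 13 and 10 lower when HFD mouse 1, HFD mouse 3, Chow mouse 9 and Chow mouse 11 were left out in turn. Pf4 was at 1250 and 1554 CPM on chow against 144 and 89.6 CPM on HFD (log2 −3.86 ± 0.23, adjusted p = 3.04e-09). Cd81 was at 2341 and 3172 CPM against 464 and 321 CPM (log2 −3.06 ± 0.21). Apoe was at 52985 and 51208 CPM against 10904 and 8188 CPM (log2 −2.68 ± 0.19). Cx3cr1, the fractalkine receptor, Mrc1, the mannose receptor, and Il10, which restrains inflammation in the gut, had log2 changes of −2.59, −2.80 and −2.98. In C1q-high cells 13 of 27 were lower, among them Pf4 (−3.02), Cd81 (−2.22), Cx3cr1 (−1.95) and Il10 (−2.09). In C1q-low cells 2 were lower and 1 higher of 19. Apoe and Cd81 were called lower at both levels. The summed level of the 31 resident markers was 83140, 81780, 23425 and 20535 CPM and that of the 28 monocyte markers 29049, 38692, 41761 and 43009 CPM. These differences in makeup stand beside all the diet calls above, and in the C1q-high cells alone the resident markers still summed to 94164, 93267, 38762 and 36271 CPM. Their part in the calls, within the C1q levels too, was not tested.

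**Figure D5:**
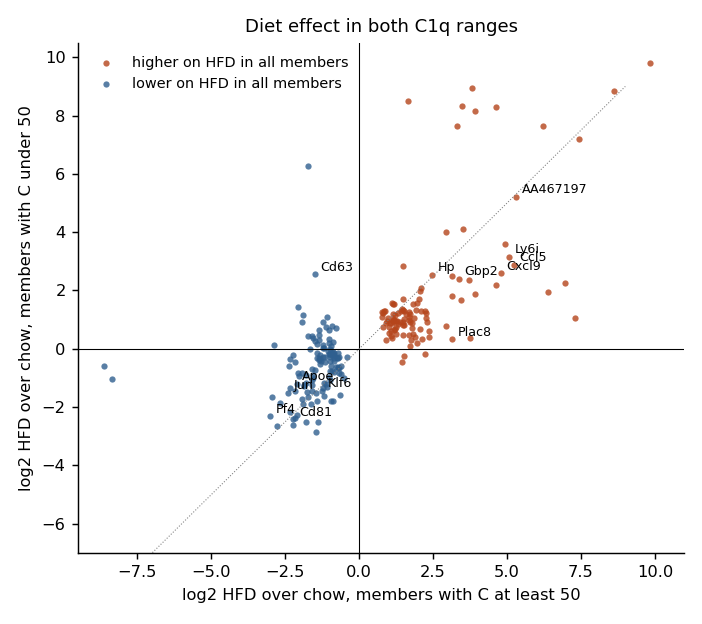
Log2 HFD over chow of the genes called in all cells of the rule, in members (cells of the rule) with C of at least 50 (x axis) and with C under 50 (y axis), each from its own fit, with a dotted line where both are equal. Plac8 lies at 3.15 and 0.32, Cxcl9 at 4.8 and 2.59 and Pf4 at −3.02 and −2.32.

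In all cells of the rule, most of the immediate-early genes, which rise within minutes of cell stress, were lower on HFD. Fewer of the heat shock genes were called lower. Of 17 immediate-early genes 11 fell and 0 rose (median −0.86), and of 11 heat shock genes 4 fell and 0 rose (median −0.93). Over all genes 3.0% fell. By C1q level, 7 immediate-early genes were called lower in C1q-high cells (median −0.95) and 2 in C1q-low cells (median −0.38, against 0.30 over all genes). Leaving out HFD mouse 1, HFD mouse 3, Chow mouse 9 or Chow mouse 11 gave 6, 4, 7 or 3 immediate-early and 1, 2, 4 or 1 heat shock genes. Atf3 was at 1603 and 1631 CPM on chow against 523 and 428 CPM on HFD (log2 −2.0 ± 0.18, adjusted p = 3.33e-07). Jun, at 1283 and 694 CPM against 224 and 213 CPM, and Klf6, at 1299 and 1496 CPM against 587 and 597 CPM, were called lower in both C1q levels. Hspa1a, the inducible Hsp70, was at 1403, 1274, 527 and 526 CPM (log2 −1.57 ± 0.17), and in C1q-high cells 3 of the 4 heat shock falls were called. In C1q-low cells edgeR called 0 heat shock genes (3 at an unadjusted p under 0.05, against 525 of 4874 over all genes). There, 7 of 10 had a positive change (median 0.27, against 0.30 over all genes), and the 4 turned direction, Hspa1a to 1.15 (adjusted p = 0.0807), Hsp90aa1 to 0.64, Dnajb1 to 0.36 and Dnaja1 to 0.12. These genes also respond to tissue dissociation, whose part was not tested.

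Chemokines split by member. Of 12 tested, Ccl5 and Ccl24 rose and Ccl3, Ccl4, Cxcl1, Cxcl2 and Pf4 fell, while of all genes 2.20% rose and 3.0% fell. Without HFD mouse 1, HFD mouse 3, Chow mouse 9 and Chow mouse 11, 3, 1, 1 and 1 rose and 6, 5, 4 and 3 fell. Ccl5, which draws T cells, was at 48.1 and 20 CPM on chow against 688 and 596 CPM on HFD (log2 4.32 ± 0.33, adjusted p = 4.21e-08), and it was called at both C1q levels. Ccl3, a macrophage inflammatory protein, was at 2389 and 2395 CPM against 684 and 457 CPM (log2 −2.30 ± 0.20). Ccl24, eotaxin-2, was at 8.02 and 7.49 CPM against 60.8 and 273 CPM, so that the HFD mice differed from each other. Among cytokines, Il1rn, the interleukin 1 receptor antagonist, rose from 56.1 and 207 CPM to 601 and 450 CPM (adjusted p = 0.00246), and lost its call without HFD mouse 1 (adjusted p = 0.0186), Chow mouse 9 (0.0559) or Chow mouse 11 (0.0249). Il1b itself was abundant and level, at 8649, 11025, 10118 and 10054 CPM (log2 −0.20 ± 0.17, adjusted p = 0.549), and Tnf had a log2 change of −0.76 (adjusted p = 0.112).

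Genes of energy metabolism shifted upward in part. Of 76 nuclear-encoded respiratory chain and ATP synthase genes 15 rose and 0 fell (median 0.71), and of 15 glycolysis genes 4 rose and 0 fell (median 0.89). For this and the lists that follow here, 2.20% of all genes rose and 3.0% fell. The 15 became 1, 1, 8 and 0 without HFD mouse 1, HFD mouse 3, Chow mouse 9 and Chow mouse 11 (in the last, 43 had an unadjusted p under 0.05 by edgeR), and the 4 became 2, 1, 3 and 1. In C1q-high cells 11 and 3 rose, and in C1q-low cells 0 and 0, with 36 and 7 at an unadjusted p under 0.05 by edgeR. Over all genes in C1q-low cells that held for 525 of 4874. Cox8a, a subunit of cytochrome c oxidase, was at 465 and 407 CPM on chow against 1022 and 1117 CPM on HFD (log2 1.08 ± 0.18). Pkm, the last enzyme of glycolysis, was at 425 and 400 CPM against 1043 and 1123 CPM, and Ldha, lactate dehydrogenase, at 248 and 385 CPM against 931 and 937 CPM. The 12 transcripts encoded in mitochondria gave 1 fall, mt-Rnr2 (log2 −1.04), which was called without HFD mouse 1 but not without HFD mouse 3, Chow mouse 9 or Chow mouse 11, nor within either C1q level. Lysosomal genes gave 4 falls of 17, Ctsb, Ctsl, Hexa and Lipa, and 2, 1, 3 and 1 falls with the same mice left out in turn. Within C1q-high and within C1q-low cells edgeR called 0 lysosomal genes, with 7 and 2 of 17 at an unadjusted p under 0.05, against 950 of 5501 and 525 of 4874 over all genes.

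The 12 largest rises by fitted log2 change were Saa3, Nrg1, Spon1, Upp1, AA467197, Ifit1, F10, Ccl17, Procr, Ly6i, Ccl5 and Gsr. For most of them the chow sums held few or no counts, so this order does not rank measured folds. Genes with more counts on chow, such as Cxcl9 (log2 3.99), could lie above some of them. The first 4 of these had no count on chow, and passed the filter on low values through the HFD mice. Ifit1, Ccl17 and Gsr (0 and 2.50 CPM on chow) and F10 and Procr (0 and 5.0 CPM) had few counts there. These genes too passed it through the HFD mice. Saa3, an acute-phase serum amyloid, was at 466 CPM in HFD mouse 1 and 46.3 CPM in HFD mouse 3, at least 28.8-fold higher on HFD against the floor of 3 counts, and from HFD mouse 3 alone at least 8.1-fold. Nrg1, the growth factor neuregulin 1, was at 149 and 86.6 CPM (at least 18.2-fold), and Spon1 at 43.4 and 39.9 CPM (at least 7.16-fold). F10, coagulation factor X, was at 0 and 5.0 CPM against 117 and 115 CPM, and Procr, the protein C receptor, at 0 and 5.0 CPM against 106 and 98.1 CPM. Ccr7 and Ccl17, a receptor and a chemokine of migratory dendritic cells, were the 2 of 7 tested dendritic cell genes that rose (2.20% of all genes did), Ccr7 from 0 and 7.49 CPM to 99.9 and 133 CPM, and Mgl2 fell. Without either chow mouse neither of the 2 was called.

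The largest falls were Igha and Jchain, genes of IgA-secreting plasma cells, followed by Fcrls, Pf4, Lilra5, H2-M2, Tmem119, St3gal6, Blnk, Ecm1, Mmp13 and Olfml3. Igha was at 24504, 6566, 71.7 and 53.1 CPM. In Chow mouse 9, 1 cell held 5126 of the 5148 Igha and Jchain UMIs, and in Chow mouse 11, 3 cells held 3782 of 4268, whereas no HFD cell held more than 5. Without those cells the log2 change of Igha went from −8.23 to −3.11 and 196 genes were called (82 higher, 114 lower), 195 of them among the 267. Plasma and B cell markers summed to 42083, 11015, 315 and 277 CPM, while T and NK cell markers summed to 40.1, 94.9, 40.2 and 47.6 CPM, with Cd3d at 0 in 3 of the 4 mice, both after the removal of cells annotated as other types. Ecm1, extracellular matrix protein 1, was at 441 and 360 CPM on chow against 53.2 and 38.6 CPM on HFD (log2 −3.37 ± 0.26), and Mmp13, a collagenase, at 345 and 589 CPM against 59.7 and 65.0 CPM (log2 −3.19 ± 0.25).

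In the C1q-low cells 6 genes were called that did not pass in all cells, Dnase1l3, Prdx1 and Pomp higher and Clec4e, Ahnak and Ccl9 lower on HFD. Dnase1l3 was at 0 and 153 CPM on chow against 947 and 1348 CPM on HFD (log2 3.36, adjusted p = 2.72e-12), whereas in C1q-high cells its change was −0.21 (adjusted p = 0.698) and in all cells −0.60 (adjusted p = 0.0498). Prdx1, a peroxidase that removes hydrogen peroxide, had log2 changes of 2.26 in C1q-low cells (adjusted p = 1.14e-09) and 0.21 in C1q-high cells (adjusted p = 0.632). The 2 were singled out after their values were seen, and whether the change differed between the C1q levels was not tested. The chow value rests on 4 and 22 cells, and the adjusted p of the C1q-low cells come from the fit with infinite prior degrees of freedom.

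Whether the diet effect itself differed between the cells of the rule and the MHC II-low monocytes was tested with an interaction term on the 8 sums, with a term for each mouse, since both classes came from the same mice. It was called for 29 of 4881 genes (0.594%), 14 with a more positive and 15 with a more negative effect in the cells of the rule. Ly6i was at 24.0, 32.5, 621 and 931 CPM in the cells of the rule and at 71.7, 91.4, 247 and 295 CPM in the monocytes (difference of the log2 effects 2.92 ± 0.42, adjusted p = 0.000379). Hp was at 24.0, 32.5, 347 and 233 CPM against 913, 841, 1631 and 907 CPM in the monocytes (2.64 ± 0.33, adjusted p = 0.000111). Clec7a, the β-glucan receptor Dectin-1, was at 393, 617, 1520 and 1599 CPM against 885, 883, 866 and 873 CPM, so that the monocytes were level (1.51 ± 0.22, adjusted p = 0.000379). Fcgr4, an activating Fc receptor, ran the other way, at 248, 397, 221 and 235 CPM in the cells of the rule and at 28.7, 72.3, 211 and 261 CPM in the monocytes (−2.78 ± 0.34, adjusted p = 0.000111). Ecm1, Ccl4, Atf3, Klf6 and Socs3 also had a more negative diet effect in the cells of the rule. Without HFD mouse 1, HFD mouse 3, Chow mouse 9 and Chow mouse 11, 25, 12, 14 and 8 genes were called. With the cells of the rule restricted to C1q-high cells, 14 of 4905 genes were called, 10 of them among the 29, and Hp (adjusted p = 0.0168), Klf6 (adjusted p = 0.0174) and Ccl4 (adjusted p = 0.0197) lost the call. The C1q makeup of the cells of the rule differed between the diets, while 66 of 66, 77 of 79, 285 of 286 and 331 of 339 monocytes were C1q-low, and the part of this makeup in the interaction was not tested.

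Higher Cxcl9 and Gbp2 values on HFD were also found outside the rule, where the diets were not tested. In Ly6c2-negative C1q-high cells Cxcl9 was at 8.56, 24.1, 673 and 783 CPM and Gbp2 at 24.8, 29.8, 379 and 461 CPM, lower than in the cells of the rule in both HFD mice. In the MHC II-low monocytes Cxcl9 was at 9.57, 11.4, 670 and 864 CPM. Both HFD mice were thus above both chow mice in Cxcl9 on both sides of the Ly6c2-positive MHC II-high cells, among monocytes low in MHC class II and among C1q-high macrophages without Ly6c2.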

How the data were processed

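The authors pseudo-aligned 10x Genomics 3′ reads to mm10 (Ensembl 97) with kallisto 0.46.0 and bustools 0.39.2, filtered cells (keeping those annotated as macrophages or monocytes) and low genes, and deposited raw UMI counts per gene and cell. Diet and mouse were read from the cell names. Counts of the cells of the rule were summed per mouse (124753, 400368, 921139 and 2354770 UMIs). A gene was tested where 2 or more sums exceeded a CPM of 1 and 5% or more of these cells held it, by edgeR 4.0.16 (R 4.3.3; TMM, quasi-likelihood test, Benjamini-Hochberg, FDR 1%). Rule genes (Ly6c2, H2-Aa, H2-Ab1, H2-Eb1, Cd74) stayed in the fit and were not tested. In simulated data, 68.3% of 200 genes changed by 2 log2 units were recovered among 5137 for diet in the cells of the rule (17.4% of 200 among 4881 for the interaction). DESeq2 1.42.0 was an alternative. Scrublet (scanpy 1.11.5) marked 38 cells (0.701%), 13 of them in the set (1.46%; 3, 0, 5 and 5 per mouse), which were kept. Members and gene lists were chosen with earlier results of these data known. Named genes were those of the rule and marker lists, the 12 largest rises and falls among calls that separated the diets, up to 4 per gene list, genes the study's text names, the 10 highest and lowest against each neighbouring class, and the 10 lowest p of the interaction; other names were chosen after values were seen. Intervals cover counting error only. Etv7 was not analysed here, and some results are not reported here.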

Additional observations from a re-analysis of the deposited data

Results flagged for a closer look

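The diet effect differed between the Ly6c2-positive MHC II-high cells and the Ly6c2-positive MHC II-low monocytes for 29 genes by the interaction test (edgeR, FDR 1%). The difference of the log2 diet effects, MHC II-high minus MHC II-low, was positive for Ly6i (2.921) and Hp (2.644). It was negative for Ecm1 (−3.679), Fcgr4 (−2.784), Ccl4 (−1.951), Atf3 (−1.651), Socs3 (−1.593) and Klf6 (−1.463), and for the plasma cell genes Jchain (−4.1) and Igha (−5.351). With the MHC II-high cells restricted to C of 50 or more, 14 genes were called, 10 of them among the 29, and Hp (adjusted p = 0.0168), Klf6 (adjusted p = 0.0174) and Ccl4 (adjusted p = 0.0197) lost the call. Single cells with over 100 Igha and Jchain UMIs held most of the last 2 genes' counts on both diets in the monocytes. Without them, the difference was −1.39 for Igha (adjusted p = 0.125) and −1.15 for Jchain (adjusted p = 0.292), and 51 genes were called, 27 of them among the 29.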

How the results depend on the processing

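Diet calls (267) numbered 422 with the likelihood-ratio test, 164 with DESeq2, 456 (271 higher, 185 lower) without the filter on low counts, 493 at FDR 5%, 100 for cells with at least 2 Ly6c2 UMIs, 36 for C under 50, 36 for M from 200 to 400, 70 with equal cells per mouse and 28 at equal depth. They were 159 without cells above 2 times the median UMIs, a setting chosen after seeing the data, as were those for C of 50 or more and without immunoglobulin-rich cells. Leaving out 1 mouse gave 55 (without Chow mouse 11) to 141. Without Chow mouse 9 it was 122, without HFD mouse 1 141 and without HFD mouse 3 112. RLE scaling, M limits of 100 or 400, C of 50 or more, no marked doublets and no immunoglobulin-rich cells stayed within 1.5 times. Interaction calls (29) were 85 with the likelihood-ratio test, 62 without the filter, 2 with equal cells, 14 for C of 50 or more and 51 without immunoglobulin-rich cells, and 8 to 25 with a mouse left out. The share difference (25.5 points) was 14.3 thinned, 15.1 for at least 2 Ly6c2 UMIs, 12.5 among Ly6c2-positive cells and 8.25 for C of 50 or more, and 16.6 to 34.4 with a mouse left out.

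Of 1867 comparisons of 101 called named genes, 1274 kept call and direction, 573 lost the call and 20 turned direction. In cells with C under 50 these were Ecm1 (0.11), Ccl4 (0.42), Hspa1a (1.15), Dnajb1 (0.36), Hsp90aa1 (0.64), Dnaja1 (0.12), Ctsl (0.089), Cd63 (2.55), Ptgs1 (6.26), Ms4a4c (−0.18) and Cd33 (0.91). With M from 200 to 400 they were Procr (−0.13), Ecm1 (0.53), Ly6a (−0.40), Ighm (0.71), Hspa1a (0.10), Ctsl (0.23), Lipa (1.29) and mt-Rnr2 (0.052), and with at least 2 Ly6c2 UMIs Cxcl2 (0.042). Beyond the smaller chow sums of these settings the cause was not tested. No paired analysis was possible because the diets share no mouse numbers (the interaction had a term for each mouse). Chow sums of 24 and 86 cells limit what could be called.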
